A study of Mus musculus with 12 samples.

Results

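Efna1, Arhgap10 and Cracd act at the cell surface and in the actin skeleton beneath it. They were picked for their shift in hematopoietic stem cells (HSCs) with 1 Erg allele, and their values were followed through 2 stem and progenitor populations of mouse bone marrow. Every probe set annotated to 1 of the 3 symbols alone was taken, which gave 4 probe sets of 18719, 1 each for Efna1 and Arhgap10 and 2 for Cracd. The probe annotation gave 9984 genes a value. The study hybridised RNA to 12 Affymetrix arrays, with 3 samples in each of its 4 groups.

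Erg is a DNA-binding regulator of the ETS family that blood stem cells depend on. HSCs carried CD150 but not CD48 within the c-Kit+, Sca-1+ and Lineage- gate. They were taken from Erg +/- mice, in which a general deleter Cre had removed exon 11 of 1 allele in the germ line, and from Erg +/+ mice. The titles call the Erg +/- samples knock-outs, and the genotype field was followed here. The multipotent progenitors (MPPs) came from Erg -/- mice, in which Mx1-Cre had removed the floxed exon from both alleles, and from Erg fl/fl mice without Cre. Mx1-Cre is driven by an interferon-responsive promoter, and both MPP groups received pIpC, an inducer of interferon, 5 times at intervals of 2 days and were sorted 2 weeks after the first dose. The HSC labels name no pIpC. All mice were male and on a C57Bl/6 background. The fields of the MPP labels disagree on the gate, giving CD150-negative cells in one and the CD150-positive, CD48-negative gate in the other. The labels state no ages, and do not say whether the 3 samples of a group came from separate animals or pools, so the p-values here reflect only sample-to-sample spread, part of which may be technical.

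The populations differed in markers from lists drawn up with earlier results of these data known, so this is a description and no independent check. Of the 6 probe sets of 5 measured HSC-associated genes, 5 were lower in Erg fl/fl MPPs than in Erg +/+ HSCs by limma, against 0.321% of all probe sets called in either direction. Among them were Mmrn1 (19.8-fold, adjusted p = 7.24e-06) and both probe sets of Ifitm1. The remaining one, Cd63, was higher by 0.54 log2 units and did not pass (limma, adjusted p = 0.205). Of the 2 measured MPP-associated genes, Flt3 was higher (5.94-fold, adjusted p = 0.00248), and Il12a did not pass (adjusted p = 0.52). Erg itself is not analysed here, so the genotypes were not checked on it. Array medians lay between 5.41 and 5.54 on the log2 scale, and over all probe sets r between replicates of 1 group was 0.8853 to 0.9428.

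Ephrins are cell-surface ligands of the Eph receptor tyrosine kinases, and contact between the cells that carry them signals in both directions, with changes in adhesion and cell shape as the known outcome. Those changes run through small GTPases, which GTPase-activating proteins switch off, and through actin filaments, whose growing ends are closed by capping protein. In the marrow, adhesion and the actin skeleton are known for their part in holding stem cells in the niche and in their migration. Values are RMA log2 values of a probe set, in which a step of 1 is a doubling, and a level says nothing about another probe set's level. In RNA pooled from many cells, fewer cells of a type and less RNA per cell cannot be told apart.

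Efna1 encodes ephrin-A1, a ligand held in the membrane by a lipid anchor, which binds EphA receptors. RefSeq promoter windows were matched for 2 of the 3 genes, Efna1 and Cracd, each running from 250 bases before to 50 bases after a start. Both windows of Efna1 (GRCm38.p6, minus strand, chr3:89280902-89281201 and chr3:89279596-89279895) are shown because ETS factors, Erg among them, bind a GGAA core. Capitals mark each GGAA and its reverse complement TTCC.
Efna1, outer start: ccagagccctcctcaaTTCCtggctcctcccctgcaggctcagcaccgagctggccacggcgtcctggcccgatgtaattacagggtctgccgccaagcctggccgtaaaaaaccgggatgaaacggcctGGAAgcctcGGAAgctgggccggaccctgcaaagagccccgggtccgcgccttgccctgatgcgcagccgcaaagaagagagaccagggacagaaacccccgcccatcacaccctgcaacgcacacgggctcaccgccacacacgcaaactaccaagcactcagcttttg
Efna1, inner start: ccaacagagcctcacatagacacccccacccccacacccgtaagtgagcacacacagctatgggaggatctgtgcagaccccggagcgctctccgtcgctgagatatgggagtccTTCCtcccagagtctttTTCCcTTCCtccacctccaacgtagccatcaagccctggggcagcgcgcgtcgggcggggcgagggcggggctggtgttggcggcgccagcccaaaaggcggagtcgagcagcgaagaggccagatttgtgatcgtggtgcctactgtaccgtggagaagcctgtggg
The outer window holds 2 GGAA and 1 TTCC, and the inner one holds 0 GGAA and 3 TTCC. Of all 32851 windows of this length, 96% hold at least 1 match on either strand, with a median of 3 matches, so the Efna1 counts are ordinary ones. The longer form CCGGAA (reverse complement TTCCGG), which contains the core, matches neither Efna1 window and 14.9% of all windows. AGGAAG (reverse complement CTTCCT), which also contains it, has 2 matches in the inner window, 0 in the outer one, and at least 1 in 35.4% of all windows.

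Efna1 (probe set 10499536) stood at 5.01, 4.40 and 4.54 in the 3 Erg +/- HSC arrays, against 5.93, 7.36 and 6.28 in the 3 Erg +/+ HSC arrays. Each Erg +/- array lay below each Erg +/+ array, with 0.92 log2 units between the nearest ones. Means were 4.65 ± 0.321 in Erg +/- HSCs and 6.52 ± 0.741 in Erg +/+ HSCs (SD, n = 3 each), a difference of -1.87 log2 units or 3.66-fold. This contrast chose the gene, so the difference is a description with no test. Replicate 2 of the Erg +/+ HSCs was the highest of the 12 arrays, and without it the difference was -1.45.

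In MPPs Efna1 stood at 5.36, 5.24 and 5.09 in Erg -/- arrays, against 4.75, 4.90 and 5.13 in Erg fl/fl arrays. The groups overlapped, and their means, 5.23 ± 0.135 in Erg -/- MPPs and 4.93 ± 0.192 in Erg fl/fl MPPs (SD, n = 3 each), differed by 0.30 log2 units. This did not pass (limma, SE 0.326, unadjusted p = 0.381, adjusted p = 1.0 over all probe sets), and the 95% interval of the difference ran from -0.43 to 1.03. The spread in that fit holds the HSC arrays as well, with an SD of 0.741 in Erg +/+ HSCs, so the interval is not that of the MPP arrays alone. With the 6 MPP arrays alone the unadjusted p was 0.143 (limma, adjusted p = 0.998). Group means were ordered Erg +/+ HSC, Erg -/- MPP, Erg fl/fl MPP and Erg +/- HSC. Arrays of the last 3 groups overlapped from each neighbour to the next, so Efna1 was set apart in 1 group, the Erg +/+ HSCs. Erg fl/fl MPPs minus Erg +/+ HSCs gave -1.60 log2 units, again a description, since the Erg +/+ arrays took part in the choice.

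**Figure D1:**
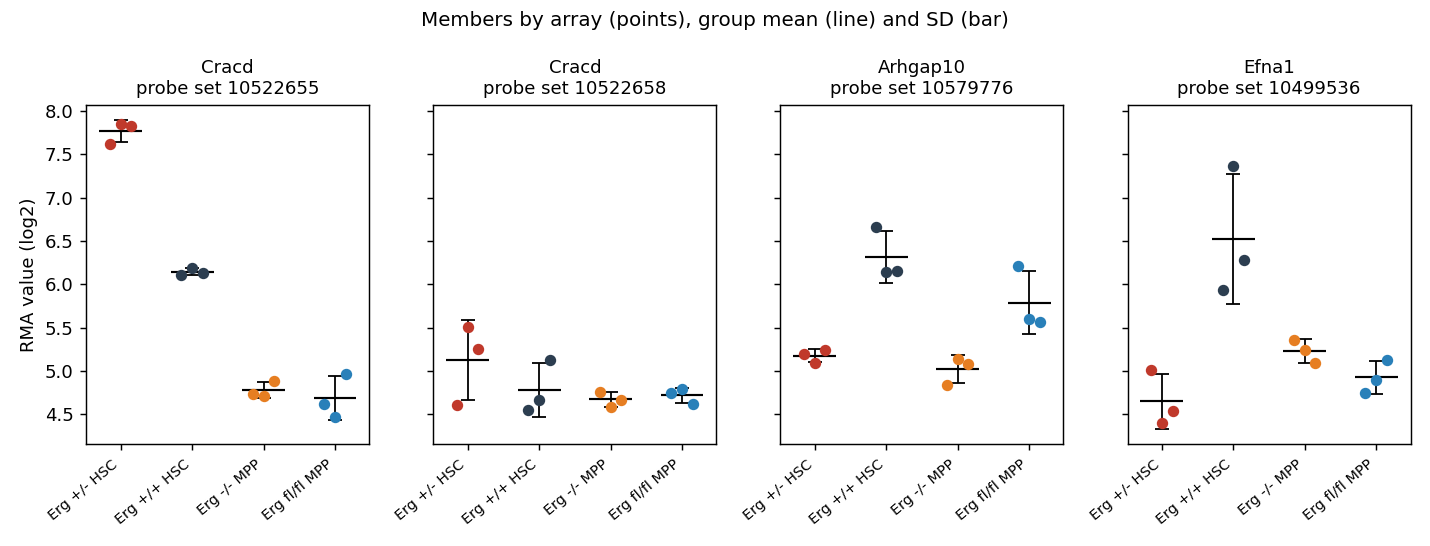
RMA values (log2, vertical axis) of the 4 member probe sets in each of the 12 arrays (points), with the group mean (line) and SD (bar, n = 3). Cracd probe set 10522655 is highest in Erg +/- HSCs and lowest in both MPP groups, Arhgap10 has its lowest means in both groups with reduced Erg, and Efna1 is high in Erg +/+ HSCs alone.

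Endothelial and stromal cells are a source of ephrin-A1 outside blood, and their markers had lower values in the same HSC arrays as Efna1. The sort for c-Kit+, CD150+ and CD48- cells without lineage markers is meant to leave such cells out, and how many passed it is not known. Of 30 listed markers 12 were measured, and 11 of the 12 had negative differences in Erg +/- HSCs, with a median of -0.33 against 0.025 over all probe sets. The list was drawn up with earlier results of these data known, so its counts and means are a description. The mean level of the 12 markers was 5.52 to 5.70 in Erg +/- HSC arrays, against 5.98 to 6.37 in Erg +/+ HSC arrays, and 5.35 to 5.48 in Erg -/- MPP arrays, against 5.45 to 5.56 in Erg fl/fl MPP arrays. RMA values have no zero, so no marker can be called absent.

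By gene, the matrix protein gene Sparc stood at 5.16, 5.95 and 5.42 in Erg +/- HSCs and at 7.97, 7.40 and 7.40 in Erg +/+ HSCs (-2.08 log2 units, limma, adjusted p = 0.119), and the niche chemokine gene Cxcl12 at 5.92, 5.46 and 5.58 in Erg +/- HSCs and at 9.09, 6.08 and 7.03 in Erg +/+ HSCs (-1.75, adjusted p = 0.901). The mural cell receptor gene Pdgfrb differed by -0.67, Kdr, which encodes a VEGF receptor, by -0.52, Pecam1 by -0.47, Eng by -0.34, Adipoq by -0.31, Egfl7 by -0.18, Nes by -0.17, Plvap by -0.04, Acta2 by -0.01 and Lpl by 0.05. None of the 12 passed over all probe sets, and 3, Sparc, Cxcl12 and Pdgfrb, had an unadjusted p under 0.05 by limma. Eng was at 10.03 in Erg +/+ HSCs and at 6.42 in Erg fl/fl MPPs, so it is a marker that these stem cells carry as well. Within the Erg +/+ HSCs, Efna1 was highest in replicate 2 (7.36), where the marker mean was lowest of the 3 (5.98), and lowest in replicate 1 (5.93), where the marker mean was highest (6.37). The single markers did not all share the order of their mean. Kdr (5.49), Eng (10.22), Egfl7 (7.67) and Plvap (4.80) were highest in replicate 2, as Efna1 was. The other markers were not. Sparc (7.97), Cxcl12 (9.09), Adipoq (4.69), Acta2 (4.64) and Nes (4.49) were highest in replicate 1, and Pdgfrb (6.19) and Pecam1 (7.96) in replicate 3. Lpl stood at 5.29 in replicates 1 and 3. The part of such cells in the Efna1 difference was not tested.

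**Figure D2:**
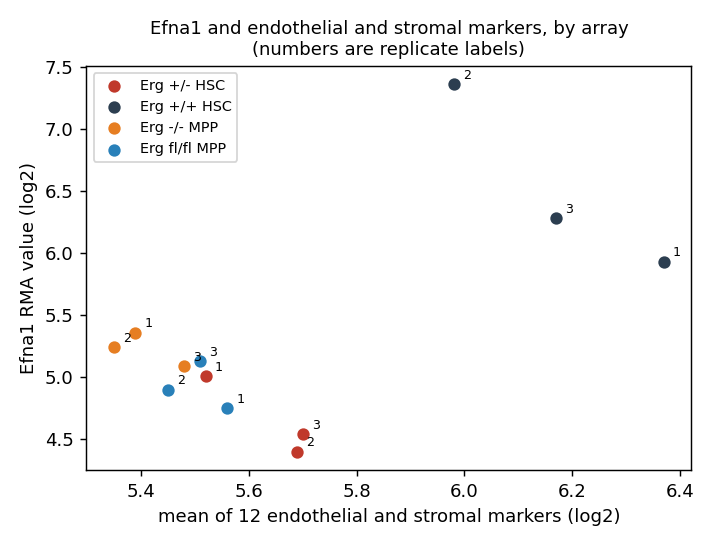
Efna1 RMA value (log2, vertical axis) against the mean of 12 endothelial and stromal markers (log2, horizontal axis) for each of the 12 arrays, coloured by group and numbered by replicate. The 3 Erg +/+ HSC arrays are apart on both axes, and among them the array with the highest Efna1 value has the lowest marker mean, an order that the single markers do not all share.

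The other ephrins and their receptors were read from lists. Like those of GTPase-activating proteins and actin genes below, these lists were drawn up with earlier results of these data known. Of the 8 ephrin genes 4 were measured beside Efna1, and 0 passed in either direction in HSCs or in MPPs by limma. Efnb2, which encodes a transmembrane ephrin of arterial endothelium, was at 5.65, 5.42 and 6.01 in Erg +/- HSCs and at 6.45, 5.90 and 7.08 in Erg +/+ HSCs, a difference of -0.78 log2 units (SE 0.287, adjusted p = 0.902). Like Efna1 it was at lower values in Erg fl/fl MPPs than in Erg +/+ HSCs, by 1.22 log2 units in size, and that did not pass either (adjusted p = 0.132). Efnb1 differed by 0.16, Efnb3 by 0.11 and Efna5 by 0.12 in HSCs, and the 4 differences in MPPs ran from -0.08 for Efnb1 to 0.35 for Efnb2. Of 14 Eph receptor genes 5 were measured, Epha1, Epha3, Ephb1, Ephb4 and Ephb6, and their differences ran from -0.30 for Ephb4 to 0.23 for Ephb1 in HSCs and from -0.24 for Epha1 to 0.22 for Epha3 in MPPs, with 0 passing. The 9 measured adaptor and signalling genes of Eph receptors, with 10 probe sets, gave 0 calls in both. Among them Nck1, an adaptor that links receptors to actin, was at 6.73, 6.37 and 6.96 in Erg -/- MPPs and at 7.62, 7.29 and 7.29 in Erg fl/fl MPPs (-0.71 log2 units, SE 0.227, unadjusted p = 0.0104, adjusted p = 1.0 by limma).

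Arhgap10, also called PS-GAP and GRAF2, encodes a GTPase-activating protein with known partners among focal adhesion and PAK kinases. Its probe set 10579776 stood at 5.20, 5.09 and 5.24 in Erg +/- HSCs, against 6.66, 6.14 and 6.15 in Erg +/+ HSCs. The 2 groups were apart by 0.90 log2 units at their nearest arrays. Means were 5.17 ± 0.0771 in Erg +/- HSCs and 6.32 ± 0.301 in Erg +/+ HSCs (SD, n = 3 each), a difference of -1.14 log2 units or 2.21-fold, which is a description, as the gene was picked on it.

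In MPPs, which took no part in the choice, Arhgap10 stood at 4.84, 5.14 and 5.08 in Erg -/- arrays, against 6.21, 5.60 and 5.56 in Erg fl/fl arrays. Again all 3 arrays with reduced Erg lay below all 3 controls. Means were 5.02 ± 0.155 in Erg -/- MPPs and 5.79 ± 0.366 in Erg fl/fl MPPs (SD, n = 3 each), a difference of -0.77 log2 units or 1.71-fold, with a 95% interval from -1.25 to -0.29. It did not pass over all probe sets (limma, SE 0.215, unadjusted p = 0.00491, adjusted p = 1.0), and 77 of the 18719 probe sets had a p as small or smaller, where 91.9 would be expected if none differed. The spread in that fit holds HSC arrays as well, and with the 6 MPP arrays alone the unadjusted p was 0.0149 (adjusted p = 0.998). Of the 4 member probe sets 1 was apart between the MPP groups, a share to be read against 9.49% of all probe sets, and 0 were called, against 0.0321% of all probe sets (6, all lower). Of all probe sets 5.04% had a difference at least as negative as that of Arhgap10. Without Erg fl/fl replicate 1, its highest MPP array, it was -0.56 log2 units (unadjusted p = 0.019).

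The order of Arhgap10 means was Erg +/+ HSC, Erg fl/fl MPP, Erg +/- HSC and Erg -/- MPP. Both controls overlapped with each other, as did both groups with reduced Erg, and the step between the pairs, 0.62 log2 units from Erg fl/fl MPPs to Erg +/- HSCs, was larger than the SDs on either side. Erythroid markers, from a list drawn up with earlier results of these data known, differed in the other direction in both populations, which is a description. All 11 measured of 18 listed had positive differences, with medians of 0.63 in HSCs and 0.39 in MPPs, and 0 passed by limma. Their mean level was 6.33 to 6.59 in Erg +/- HSC arrays, against 5.62 to 5.95 in Erg +/+ HSC arrays, and 6.19 to 6.73 in Erg -/- MPP arrays, against 5.93 to 6.26 in Erg fl/fl MPP arrays. Their part in the Arhgap10 and Cracd differences was not tested. The HSC and MPP comparisons share no arrays, and they differ in allele dose, population, pIpC and Cre, which cannot be told apart here. Erg fl/fl mice also lack Cre, so in MPPs the loss of Erg and the presence of Mx1-Cre cannot be told apart.

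**Figure D3:**
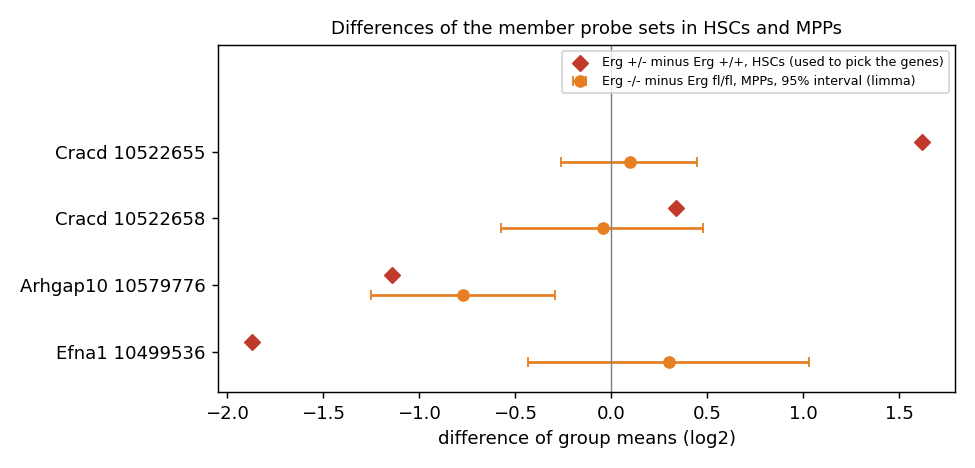
Differences of group means (log2, horizontal axis) for the 4 member probe sets: Erg +/- minus Erg +/+ in HSCs (diamonds, used to pick the genes, no interval) and Erg -/- minus Erg fl/fl in MPPs (circles, 95% interval from limma). In MPPs only the Arhgap10 interval, from -1.25 to -0.29, stays on 1 side of 0, and it is not adjusted for the 18719 probe sets. The intervals use a spread shared with the HSC arrays.

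Other GTPase-activating proteins were read from a list. Of 53 listed genes 23 were measured beside Arhgap10, with 35 probe sets, 12 of them for the myosin Myo9a, and 0 passed in HSCs or in MPPs by limma. In HSCs 22 differences were negative and 13 positive, with a median of -0.12 against 0.025 over all probe sets, and in MPPs 17 were negative and 18 positive, with a median of 0.02 against -0.005. With 1 probe set for each of the 23 genes, the mean level was 6.04, 6.07 and 6.04 in Erg +/- HSC arrays, against 6.17, 6.17 and 6.18 in Erg +/+ HSC arrays, and 6.05, 6.11 and 6.02 in Erg -/- MPP arrays, against 6.19, 6.12 and 6.09 in Erg fl/fl MPP arrays. Each Erg +/- HSC array thus lay below each Erg +/+ HSC array, where 9.84% of all single probe sets were apart in HSCs. In the means of the ephrin, Eph receptor, adaptor and actin lists the HSC groups overlapped. For the GTPase-activating proteins the MPP groups overlapped, and no test was made of these means. The smallest p-values in HSCs belonged to 1 Myo9a probe set (10585992), at -0.72 log2 units (adjusted p = 0.833) where the other 11 Myo9a probe sets ran from -1.99 to 0.21, and to Stard8, a GTPase-activating protein of the DLC family, at -0.92 (adjusted p = 0.863). In MPPs they belonged to Arhgap12 at 0.53 and Srgap2 at -0.66 (adjusted p = 1.0 for both). Arhgap26, which encodes the related protein GRAF1, differed by -0.21 in HSCs and by -0.34 in MPPs, and the 2 probe sets of Arhgap42 by -0.27 and 0.27 in HSCs and by 0.10 and 0.14 in MPPs, none of them passing.

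Cracd encodes an inhibitor of capping protein, and so a protein that favours the growth of actin filaments. Its RefSeq promoter window (GRCm38.p6, plus strand, chr5:76840349-76840648) is shown for the same GGAA core. It lies within the span that the RefSeq gene table gives the gene, not at its outer end.
Cracd, inner start: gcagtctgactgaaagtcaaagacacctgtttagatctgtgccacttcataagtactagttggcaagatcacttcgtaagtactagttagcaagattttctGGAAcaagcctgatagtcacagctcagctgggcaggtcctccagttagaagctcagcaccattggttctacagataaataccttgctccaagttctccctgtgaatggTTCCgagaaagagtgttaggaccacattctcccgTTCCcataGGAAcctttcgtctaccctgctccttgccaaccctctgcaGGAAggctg
The window holds 3 GGAA and 2 TTCC, marked by capitals, against a median of 3 matches in all windows. CCGGAA and its reverse complement TTCCGG have 0 matches in it, and AGGAAG has 1.

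The 2 probe sets of Cracd did not give the same picture. Probe set 10522655, annotated with 1 cDNA clone and no RefSeq transcript, stood at 7.62, 7.85 and 7.83 in Erg +/- HSCs, against 6.11, 6.19 and 6.13 in Erg +/+ HSCs. The groups were apart by 1.43 log2 units, the widest gap among the members. Means were 7.77 ± 0.131 in Erg +/- HSCs and 6.14 ± 0.0419 in Erg +/+ HSCs (SD, n = 3 each), a difference of 1.62 log2 units or 3.08-fold, again the contrast that chose the gene and given with no test.

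Probe set 10522658, whose annotation includes the RefSeq transcript, stood at 4.61, 5.51 and 5.25 in Erg +/- HSCs, against 4.55, 4.66 and 5.13 in Erg +/+ HSCs. These groups overlapped, and their means of 5.12 ± 0.465 in Erg +/- HSCs and 4.78 ± 0.309 in Erg +/+ HSCs (SD, n = 3 each) differed by 0.34 log2 units, within the spread. The mean of both Cracd probe sets differed by 0.98. In HSCs 3 of the 4 member probe sets were thus apart between the genotypes, where 9.84% of all probe sets were, a count that the choice of members fixes. By limma 0.0107% of all probe sets were called in HSCs.

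In MPPs neither Cracd probe set told the genotypes apart. Probe set 10522655 stood at 4.74, 4.71 and 4.89 in Erg -/- MPPs, against 4.62, 4.47 and 4.97 in Erg fl/fl MPPs, and differed by 0.10 log2 units (limma, SE 0.159, adjusted p = 1.0), with a 95% interval from -0.26 to 0.45. Probe set 10522658 stood at 4.76, 4.59 and 4.67 in Erg -/- MPPs, against 4.75, 4.79 and 4.62 in Erg fl/fl MPPs, and differed by -0.04 (SE 0.237, adjusted p = 1.0), with an interval from -0.57 to 0.48.

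For probe set 10522655 group means fell in the order Erg +/- HSC, Erg +/+ HSC, Erg -/- MPP and Erg fl/fl MPP. The first 3 were apart from each other, and the 2 MPP groups overlapped. Erg fl/fl MPPs minus Erg +/+ HSCs gave -1.46 log2 units, as a description. Between these controls 2 of the 4 member probe sets were apart, Efna1 and this one, against 23.9% of all probe sets, a count that the choice of members partly fixes. The SD of probe set 10522655 within groups, pooled over the 4 groups, was 0.153, a value that 6.5% of probe sets undercut, against a median of 0.343. The pooled SD was 0.286 for Cracd probe set 10522658, 0.252 for Arhgap10 and 0.421 for Efna1. The 4 groups of probe set 10522658 all overlapped with their neighbours in order.

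Of the 33 listed genes of actin capping and its regulation 18 were measured beside Cracd, with 18 probe sets, and 0 passed in HSCs or MPPs by limma. The capping protein subunit genes Capza1 and Capza2 differed by 0.13 and 0.02 in HSCs and by -0.20 and -0.09 in MPPs. Cd2ap, which encodes an adaptor that binds capping protein, was at 8.59, 8.65 and 8.58 in Erg +/- HSCs, against 7.86, 8.14 and 7.92 in Erg +/+ HSCs, and at 9.08, 8.91 and 8.97 in Erg -/- MPPs, against 8.43, 8.50 and 7.63 in Erg fl/fl MPPs. The arrays with reduced Erg lay above their controls in both populations. Of all probe sets 9.84% were apart in HSCs and 9.49% in MPPs. Cd2ap, named for the smallest p of its list in both, differed by 0.63 log2 units in HSCs (SE 0.22, unadjusted p = 0.0164, adjusted p = 0.902). In MPPs it differed by 0.80 (SE 0.22, unadjusted p = 0.00458, adjusted p = 1.0), and neither difference passed by limma. The filament-severing gene Gsn differed by 0.48 in HSCs (adjusted p = 0.935) and by 0.41 in MPPs (adjusted p = 1.0), and Eps8l2 by -0.66 in HSCs (adjusted p = 0.902). Of 62 listed genes of actin nucleation and turnover 22 were measured, and 0 passed. In HSCs Abi2, of the WAVE complex, was at -0.30 and Actr3, of the Arp2/3 complex, at 0.29, and in MPPs the coronin gene Coro1c was at -0.51 and the cofilin partner gene Wdr1 at 0.41.

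**Figure D4:**
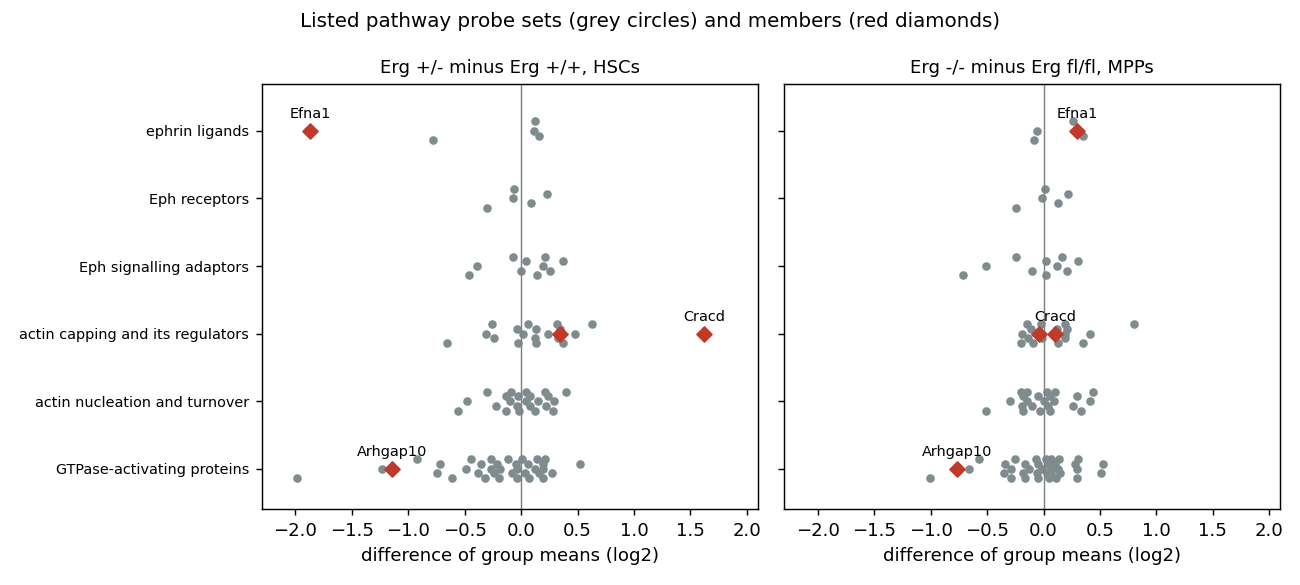
Differences of group means (log2, horizontal axis) for the listed probe sets (circles) of 6 lists (rows), with the members as diamonds, Erg +/- minus Erg +/+ in HSCs on the left and Erg -/- minus Erg fl/fl in MPPs on the right. In HSCs, where they were picked, Efna1 and 1 Cracd probe set lie outside the other probe sets of their lists and Arhgap10 does not, and in MPPs Cracd and Efna1 lie among the other probe sets of theirs.

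Over all 7 lists, 1 of which is not described by gene here, 93 of 231 genes beside the members were measured, with 107 probe sets. By limma 0 passed in HSCs and 0 in MPPs, against 0.0107% and 0.0321% of all probe sets, and 5 and 2 of the 107 had an unadjusted p under 0.05, where 5.32% and 3.62% of all probe sets did. In a test of whether the MPP and HSC differences were unequal, 0 of the 107 passed, against 0.016% of all probe sets, and 5 had an unadjusted p under 0.05, where 3.15% of all probe sets did. Between the controls, Erg fl/fl MPPs and Erg +/+ HSCs, 0 passed as well, against 0.321% of all probe sets, and 27 had an unadjusted p under 0.05, where 16.9% of all probe sets did. Myo9a passed there without Erg +/+ replicate 1, Stard8 without Erg +/+ replicate 2, and Efnb2 when probe sets were averaged by gene. The actin genes Cttn, which encodes cortactin, at -1.10 log2 units and Spire1 at -0.96, and Capza1 at 0.77, were among the smallest p-values of their lists (adjusted p = 0.185, 0.163 and 0.183).

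The genes whose values ran most like each member over the 12 arrays were taken from 8722 named genes by Pearson's r, as a description with no test, since arrays share population and genotype. Cracd probe set 10522655 ran most like Nupr1, a stress-responsive transcription regulator that is on the HSC list (r = 0.984), the carboxylesterase gene Ces2g (0.958), the glycolipid carrier gene Gltp (0.905), Hacd4 (0.886) and the transglutaminase gene Tgm2 (0.883). Nupr1 averaged 9.72 in Erg +/- HSCs and 8.51 in Erg +/+ HSCs, and 6.91 in Erg -/- MPPs and 6.85 in Erg fl/fl MPPs. Both Nupr1 and this Cracd probe set were thus highest in Erg +/- HSCs and low in MPPs, which was not so for the other Cracd probe set in MPPs. Within the 6 HSC arrays r was 0.979 for Nupr1 and 0.041 for Tgm2, and within the 6 MPP arrays -0.004 and 0.24. Tgm2 averaged 8.98 in both HSC genotypes, 5.60 in Erg -/- MPPs and 5.61 in Erg fl/fl MPPs.

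Arhgap10 ran most like Gpatch2 (r = 0.94), the telomere maintenance gene Ctc1 (0.886), Gnptab, which encodes an enzyme that tags lysosomal proteins (0.875), the phospholipid synthesis gene Cds2 (0.872) and Mdga1 (0.865). For these 5 genes r was 0.867 to 0.998 within the 6 HSC arrays and 0.836 to 0.905 within the 6 MPP arrays. All 5 had negative differences in HSCs, from -0.45 for Gnptab to -1.08 for Cds2, and in MPPs, from -0.29 for Ctc1 to -0.63 for Cds2. Their choice for likeness to Arhgap10 over the same arrays largely fixes that direction. Efna1 ran most like Myom1 (0.949), the nucleoside transporter gene Slc29a3 (0.86), Gpr182, an endothelial receptor gene (0.858), the transcription regulator gene Id2 (0.853) and Rnf19b (0.853). For these r was 0.882 to 0.989 within HSC arrays, and within MPP arrays it ran from -0.454 for Rnf19b to 0.788 for Id2. Cracd probe set 10522658 ran most like the stress gene Ddit4 (0.923), the death receptor gene Tnfrsf10b (0.914), Commd2, Fcnb and Zfp939, with small differences between its group means.

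**Figure D5:**
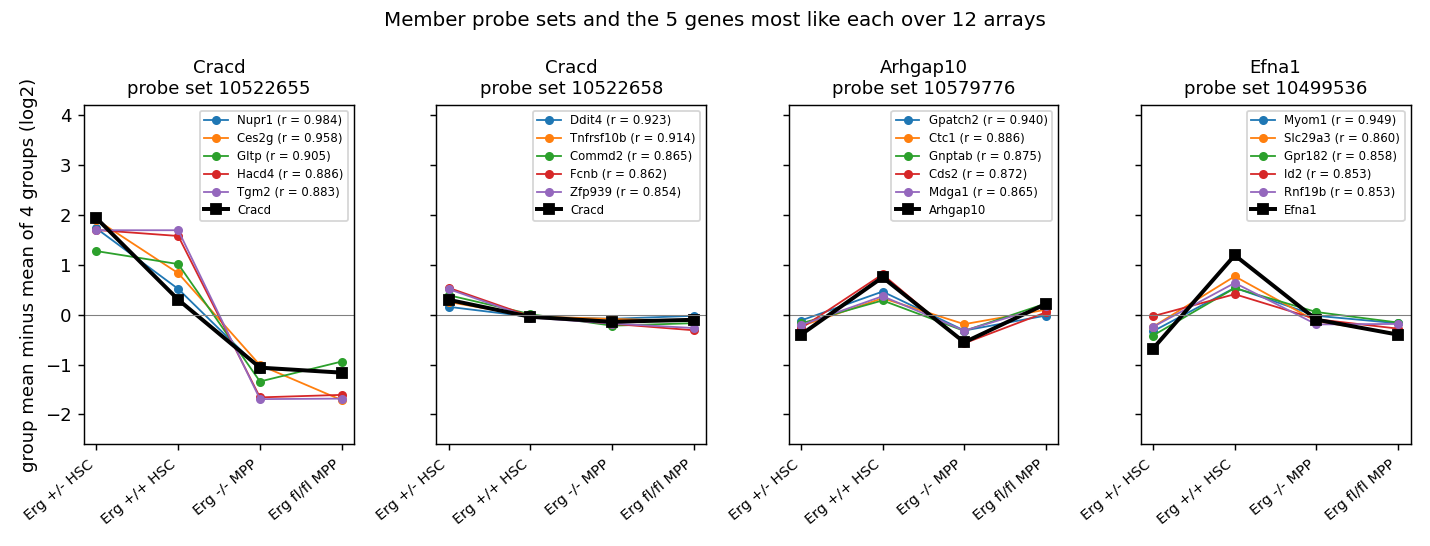
Group means minus the mean of the 4 groups (log2, vertical axis) for each member probe set (black squares) and the 5 genes most like it over 12 arrays (coloured circles, Pearson's r in the key). Cracd probe set 10522655 and its neighbours separate HSCs from MPPs, the Arhgap10 set has its lowest means in both groups with reduced Erg, and the Efna1 set is high in Erg +/+ HSCs. The choice of neighbours for likeness largely fixes these shared patterns.

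Among the members, r over the 12 arrays was 0.556 between Arhgap10 and Efna1, 0.588 between the 2 Cracd probe sets, -0.084 between Cracd probe set 10522655 and Arhgap10, and -0.089 between it and Efna1.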

How the data were processed

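Total RNA of sorted cells (20 ng) was amplified, and 2.5 µg of cDNA was labelled with biotin, per the labels' protocols. The deposited values are log2 values of RMA, as the range of 0.94 to 13.38 and the submitters' processing notes, which name RMA and affy, show. Whether RMA was run on all 12 arrays at once is not stated in the labels or notes. Quantile scaling in RMA gives differences relative to most other probe sets, and those of dim genes are compressed, and the files hold no detection call.

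Of 18719 probe sets 10657 have 1 symbol, 523 several and 7539 are not listed in the annotation. limma 3.58.1 (R 4.3.3) was fitted to all probe sets and 12 arrays with a mean per group, two-sided, with Benjamini-Hochberg adjustment over 18719 probe sets at 0.05. No filter was set. The fit was tested on simulated data. Members and lists were chosen with earlier results of these data known. Named genes are the members, the 5 genes most like each by Pearson's r (leaving out sensory receptors, small RNAs, clones and predicted genes), up to 4 called genes of each list or else the 2 with the smallest p, and the endothelial and stromal markers. Arhgap26, Arhgap42, Capza2 and other ephrins and Eph receptors were named outside that rule, for their family. Results for 1 gene list enter the totals alone and are otherwise not reported here. Arrays carry no read depth, and 3 per group limit the precision.

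The other marker lists (megakaryocyte, erythroid, granulocyte and macrophage, mast cell and basophil, B cell, T and NK cell) had medians of -0.19, 0.63, 0.32, 0.14, 0.09 and 0.04 in HSCs and of -0.04, 0.39, -0.36, -0.50, -0.74 and -0.10 in MPPs, with 0 calls in HSCs and, in MPPs, 1 mast cell and basophil and 2 B cell probe sets called, all lower. MPP-associated genes, 2 of them measured, had medians of -0.77 and -0.30, and the 6 HSC-associated probe sets 0.05 and -0.63, with 2 called lower in MPPs.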

Additional observations from a re-analysis of the deposited data

How the results depend on the processing

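The tested differences of Arhgap10 and Efna1 in MPPs kept their direction, those of all 4 probe sets there stayed short of the threshold under every alternative run, and the HSC differences of the 4 probe sets kept theirs. Arhgap10 ran from -0.89 to -0.56 in MPPs over 17 alternatives, with unadjusted p from 0.00294 to 0.0209 and adjusted p of 0.599 or more. Cracd probe set 10522655 ran from -0.01 to 0.24 in MPPs, with -0.01, a reversed sign near 0, without Erg fl/fl replicate 2. With 1 array left out in turn, Cracd probe set 10522658 ran from -0.09 to 0.00 and Efna1 from 0.21 to 0.40 in MPPs.

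Called probe sets numbered 2 in HSCs, 6 in MPPs and 60 between the controls (19 higher, 41 lower). In HSCs they were 0 with only the arrays compared, with the replicate block, with probe sets averaged by gene and without both arrays of lowest weight (Erg +/+ HSC and Erg fl/fl MPP replicate 1), and 0 to 6 with 1 array left out (0 without Erg +/+ replicate 2, 6 without Erg +/+ replicate 3). With only probe sets of 1 symbol, an alternative chosen after seeing the data, 1 was called in HSCs, 9 in MPPs and 128 between the controls. In MPPs they were 1 with only the arrays compared, 0 with the replicate block, 2 without both arrays of lowest weight, and 4 to 5 with 1 array left out. Between the controls they were 128 with 1 probe set per gene (65 higher, 63 lower), 145 with the mean of probe sets (74 higher, 71 lower), 25 with only the arrays compared, 23 without both arrays of lowest weight, and 29 to 65 with 1 array left out, with 32 when Erg fl/fl replicate 2 was left out and 29 when replicate 3 of that group was. The cause was not tested. Of the listed genes 0 were called in HSCs and MPPs under every alternative, and 0 to 1 between the controls, with 1 under the mean of probe sets.

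Same-numbered samples were not treated as pairs in the main fit. Their deviations from group means correlated at -0.046 to 0.017 in HSCs and at -0.061 to 0.107 in MPPs. Those of differently numbered samples correlated at -0.037 to 0.062 in HSCs and at -0.142 to 0.093 in MPPs. With 3 arrays per group these values cannot exclude pairing. With the replicate block Arhgap10 had an unadjusted p of 0.0196. The controls span populations, so no block was fitted to that contrast. With 3 arrays per group and no detection calls, the dim probe sets have compressed differences.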
